A study of Mus musculus with 10 samples.

Results

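The 10 genes described here encode the inhibitors through which extracellular signal-regulated kinase (ERK) signalling limits itself, together with a pair of ETS transcription factors that the same signalling switches on. They were chosen by name and not by a measured value, though with earlier results of these data known. They comprise 3 dual-specificity phosphatases (Dusp4, Dusp5 and Dusp6), 3 Sprouty genes (Spry1, Spry2 and Spry4), 2 Spred genes (Spred1 and Spred2) and 2 factors of the Pea3 group (Etv4 and Etv5). All 10 were present among the 22731 genes of the count table, and all 10 passed the filter on low counts that left 16344 genes for testing.

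Receptor tyrosine kinases such as those for fibroblast, epidermal and platelet-derived growth factors recruit adaptors and exchange factors that load Ras with GTP, and Ras then starts the relay of Raf, MEK and ERK kinases. Active ERK phosphorylates cytoplasmic kinases and nuclear ETS factors, and among the genes transcribed in response are its own brakes: phosphatases that remove the activating phosphates from ERK, Sprouty proteins that act between receptor and Ras, and Spred proteins that bring the Ras-inactivating protein neurofibromin to the membrane. Transcripts of these brakes are widely used as a readout of ERK output, and in fibroblasts the pathway is best known for driving proliferation after growth factor stimulation.

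Mouse fibroblasts were kept alone or together with group 2 innate lymphoid cells (ILC2s), lymphocytes without antigen receptors that secrete IL-13 and other cytokines, and their RNA was sequenced in bulk. The 3 groups were fibroblasts with ILC2s lacking IL-13 (IL13KO coculture, 3 libraries), fibroblasts with wild-type ILC2s (WT coculture, 3 libraries) and fibroblasts alone (monoculture, 4 libraries). In all 3 groups the fibroblasts carried the genotype given as C57B6. The knockout was in the added ILC2s and not in the fibroblasts. The series title places the fibroblasts in the pancreas. Fibroblasts had been sorted as positive for podoplanin and PDGFRA and negative for CD45, Epcam and CD31, and ILC2s as positive for KLRG1. The design text describes the second sort, done when coculture ended, as CD45-positive. Duration of culture, age of the mice and the animal behind each library are not given in the sources used here, and p-values therefore measure only the spread between these libraries, which may be technical.

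Total counts were 17277432 to 17661229 in the IL13KO cocultures, 18801744 to 22087459 with WT ILC2s and 10710410 to 14366199 in the monocultures, so that 3 reads corresponded to 0.135 to 0.277 TMM-scaled CPM, the counts of a gene relative to the library total. Il13 itself was at 0 reads in every IL13KO coculture, at 30, 120 and 121 in the WT libraries and at 0 in every monoculture, as the labels have it. The fibroblast markers Pdgfra, Pdpn, Col1a1, Col1a2, Col3a1, Dcn, Thy1 and Pi16 summed to 22928 to 27975 CPM in the IL13KO cocultures, 12387 to 16633 CPM in the WT cocultures and 6993.5 to 9789 CPM in the monocultures, and none of the 8 was at 0. Col1a1 had the largest share in the cocultures, averaging 11570 CPM with IL13KO and 6756 CPM with WT ILC2s. Dcn alone averaged less in both cocultures than in monoculture, at 1650 CPM with IL13KO ILC2s, 369 CPM with WT ILC2s and 2532 CPM in monoculture. Summed CPM of 8 leukocyte markers were 26.0 to 33.9 in the IL13KO cocultures, 109 to 139.5 with WT ILC2s and 10.6 to 19.0 in the monocultures. The largest share in the cocultures was Cd53, with 12.6 to 19.0 CPM in the IL13KO cocultures, 92.4 to 112 CPM in the WT cocultures and 2.15 to 3.96 CPM in the monocultures, where Arhgdib was higher at 7.17 to 14.1 CPM. Reads of Ptprc, the gene of CD45, numbered 0, 1 and 0 with IL13KO ILC2s, 6, 3 and 9 with WT ILC2s and 0 in each monoculture. In bulk RNA, fewer cells of a type and less RNA per cell cannot be told apart.

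The 10 genes did not move as 1 group. Etv4, Etv5, Dusp4 and Spred2 were higher in both cocultures than in monoculture and Spred1 was lower in both. Dusp6 was called in no comparison, and Spry4 only after a correction for base composition and length described further on. Calls are those of edgeR's quasi-likelihood test at an adjusted p below 0.05 (Benjamini-Hochberg, over all genes tested). In the IL13KO coculture over monoculture, 5 of the 10 genes were called higher and 1 lower, where 57.4% of all genes tested were called (30.1% higher and 27.3% lower). In the WT coculture over monoculture, 4 were called higher and 3 lower, where 62.5% of all genes were called (32.8% higher and 29.7% lower). The share of the 10 genes that changed was therefore near the background in both comparisons, which use the same 4 monocultures. The median log2 fold change of the 10 genes was 0.89 in the IL13KO coculture and -0.08 in the WT coculture, beside 0.002 and 0.015 over all genes in those comparisons, and became 0.41 and -0.22 after the correction mentioned. Against a stricter null, a fold change of 1.5, 4 genes were called higher and 0 lower in the IL13KO coculture in edgeR, also 0 at an unadjusted p below 0.05, where 25.9% of all genes were called (18.9% higher and 6.99% lower). In the WT coculture that test called 4 higher and 1 lower, where 36.0% were called (22.0% higher and 14.0% lower).

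**Figure D1:**
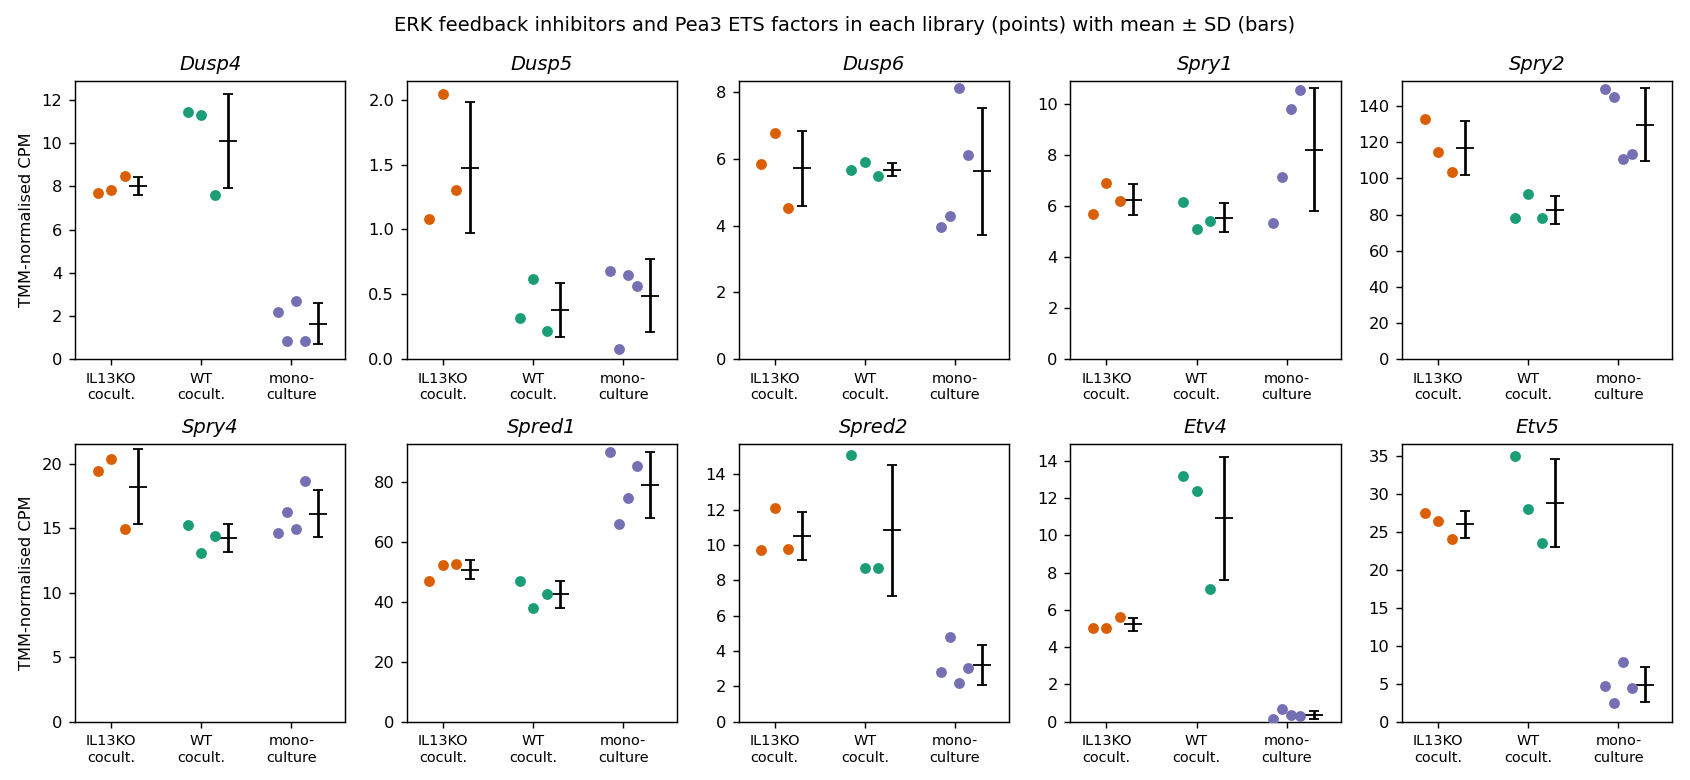
TMM-normalised CPM (vertical axis, linear, from 0) of the 10 genes in each library (points), with the group mean ± SD beside them, for 3 IL13KO cocultures, 3 WT cocultures and 4 monocultures. Etv4, Etv5, Dusp4 and Spred2 stand apart from the monocultures in every coculture library, Spred1 lies below them, and Dusp6 overlaps in all 3 groups.

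**Figure D2:**
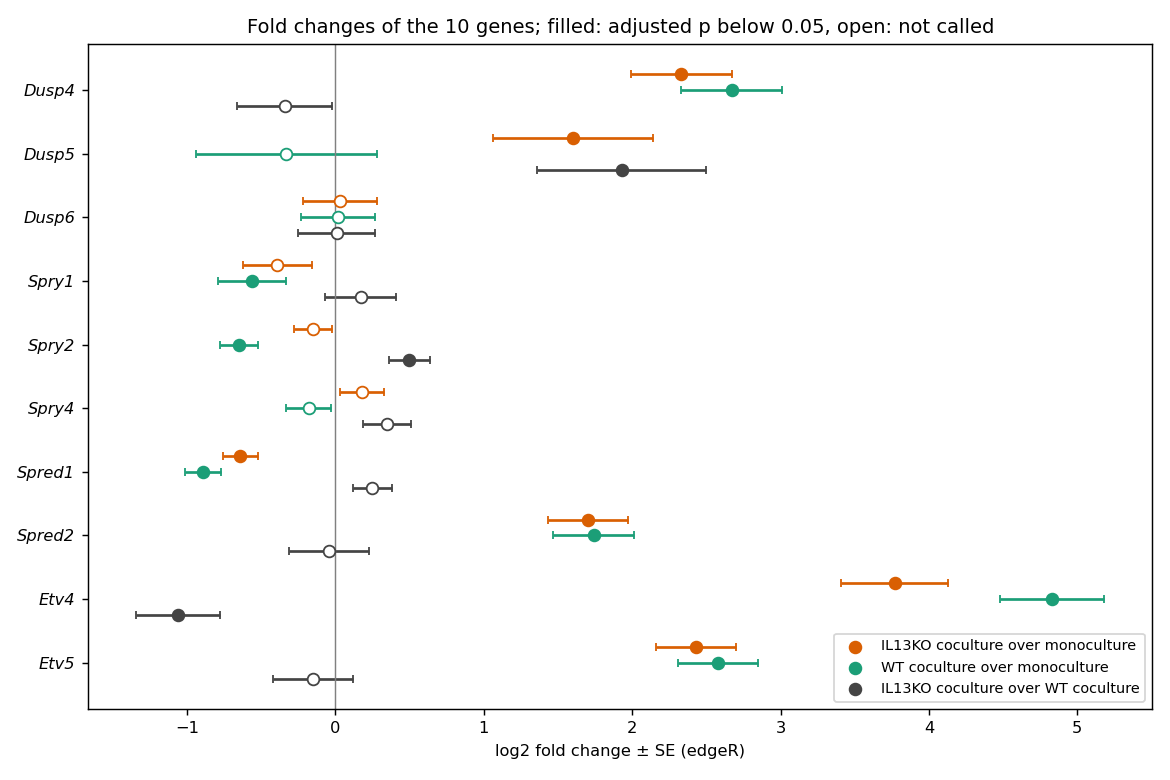
Log2 fold change ± SE (horizontal axis) of the 10 genes in 3 comparisons, with filled points where the adjusted p is below 0.05. Etv4 has the largest values in both comparisons with monoculture, 3.77 and 4.83, and Spred1 is negative in both.

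The following stretches of promoter sequence, read from RefSeq on GRCm38.p6 and running 5′ to 3′ on the strand of the gene, belong to genes with contrasting patterns: Etv5 and Spred2 rose with either kind of ILC2, and Dusp5 was higher with IL13KO ILC2s. Bases that overlap an annotated exon are left out. The Etv5 stretch is chr16:22439720-22439820 on the minus strand, the Spred2 stretch chr11:19924192-19924374 on the plus strand and the Dusp5 stretch chr19:53528895-53529108 on the plus strand. Capitals mark matches to GGGCGG, the letters bound by SP-family factors, and to the CArG box, the element of serum response factor.
Etv5: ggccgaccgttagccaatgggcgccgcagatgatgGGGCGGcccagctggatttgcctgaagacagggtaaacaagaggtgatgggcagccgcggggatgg
Spred2: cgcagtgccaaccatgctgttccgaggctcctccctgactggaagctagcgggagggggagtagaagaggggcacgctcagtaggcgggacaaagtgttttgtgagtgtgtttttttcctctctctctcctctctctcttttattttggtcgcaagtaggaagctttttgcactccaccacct
Dusp5: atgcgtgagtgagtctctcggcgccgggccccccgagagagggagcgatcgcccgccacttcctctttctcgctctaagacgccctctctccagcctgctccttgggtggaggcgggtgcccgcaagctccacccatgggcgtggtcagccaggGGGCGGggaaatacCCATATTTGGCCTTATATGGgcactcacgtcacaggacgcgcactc

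The Dusp5 stretch carries 2 CArG boxes side by side, CCATATTTGG at 82 to 73 bases and CCTTATATGG at 72 to 63 bases before the RefSeq start, next to a GGGCGG at 96 to 91 bases. Windows of 250 bases before the start were searched on both strands, with 8 windows for 7 of these genes. A CArG box was found in the Dusp5 window alone of these 8, and in 1.47% of all 32851 promoters. GGGCGG was found in 5 of the 8 windows, those of Dusp5, Etv5, Spred1, Spred2 and Spry1, and in 32.7% of all promoters. The Spred2 match, at 40 to 35 bases, lies in the bases left out of the printed stretch. So do the Etv5 matches at 99 to 94 and at 55 to 50 bases. The letters CCGGAA, a form of the site bound by ETS factors, were in none of the 8 windows and in 12.0% of all promoters. Other forms of that site were not searched for. TGANTCA, bound by AP-1, was in none of the 8 and in 6.75% of all, TGACGTCA, the cAMP response element, in none and 1.55%, and TTCNNNNGAA, bound by STAT6, in none and 5.85%. A match describes letters in the window and is not evidence of binding, and a missing match says only that these letters do not occur there. Dusp4, Etv4 and Spry4 were not examined.

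Of the phosphatases, Dusp4 encodes an inducible nuclear enzyme that acts on ERK and other MAP kinases (ENSMUSG00000031530, chr8:34807297-34819894 on GRCm38). It stood at 7.71, 7.84 and 8.50 CPM in IL13KO cocultures 1 to 3, at 11.4, 11.3 and 7.60 CPM in WT cocultures 1, 3 and 4 (the numbers their columns carry) and at 2.20, 0.815, 2.67 and 0.844 CPM in monocultures 1 to 4. Every coculture library was above every monoculture, and the cocultures overlapped each other. Relative to monoculture its log2 fold change was 2.33 ± 0.34 (SE) with IL13KO ILC2s and 2.67 ± 0.34 with WT ILC2s (edgeR adjusted p = 9.41e-05 and 2.01e-05). Between the cocultures, IL13KO over WT, it was -0.34 with a 95% interval of -1.02 to 0.35.

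Dusp5 encodes a nuclear phosphatase selective for ERK (ENSMUSG00000034765, chr19:53529109-53542431) and was the least abundant of the 10 genes in either coculture. It had 19, 36 and 23 reads in the IL13KO cocultures (1.08, 2.05 and 1.30 CPM), 7, 12 and 4 reads in the WT cocultures (0.314, 0.615 and 0.216 CPM) and 8, 1, 7 and 8 reads in the monocultures (0.676, 0.0741, 0.645 and 0.562 CPM). All IL13KO libraries were above all others, and the WT cocultures overlapped the monocultures. The log2 fold change was 1.6 ± 0.54 for IL13KO coculture over monoculture (edgeR adjusted p = 0.0215), -0.33 ± 0.61 for WT coculture over monoculture (0.657) and 1.93 ± 0.57 for IL13KO over WT coculture (0.0258). At these read numbers the calls rest on single libraries: without IL13KO coculture 2 the first was 1.30 (0.116). Each library was also corrected for the trends of log2 CPM with GC content and length of the longest transcript (the GC and length correction). The first value was then 0.68 (0.332). In a fit of the WT cocultures and monocultures alone Dusp5 did not pass the filter. Of its exon bases 22.1% are shared with AC137853.2 on the opposite strand, a gene with 2 to 8 reads in the IL13KO cocultures, 2 to 6 with WT ILC2s and 0 to 3 in the monocultures, and whether the counting used strand is not given in the sources used here.

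Dusp6 encodes the cytoplasmic ERK phosphatase commonly used as a readout of the pathway (ENSMUSG00000019960, chr10:99263231-99267489). It stood at 5.84, 6.76 and 4.54 CPM in the IL13KO cocultures, at 5.65, 5.89 and 5.50 CPM in the WT cocultures and at 3.97, 4.30, 8.11 and 6.12 CPM in the monocultures. The monocultures spanned the range of both cocultures. The log2 fold change was 0.03 for IL13KO coculture over monoculture (95% interval -0.52 to 0.57), 0.02 for WT coculture over monoculture (-0.52 to 0.56) and 0.01 for IL13KO over WT coculture (-0.56 to 0.58), none of them called. The intervals are far wider than the values, whose signs flipped under some of the other settings tried.

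The Sprouty genes encode membrane-associated inhibitors induced by growth factors. Spry2 (ENSMUSG00000022114, chr14:105891947-105896819, minus strand) was the most abundant of the 10, with 133, 115 and 103 CPM in the IL13KO cocultures, 77.9, 91.7 and 78.1 CPM in the WT cocultures and 149.8, 145, 111 and 114 CPM in the monocultures. All WT cocultures lay below all libraries of the other groups, and the IL13KO cocultures overlapped the monocultures. It fell in the WT coculture over monoculture (log2 fold change -0.65 ± 0.13, edgeR adjusted p = 0.000904), was higher in the IL13KO over the WT coculture (0.50 ± 0.14, 0.0211), and was -0.15 ± 0.13 in the IL13KO coculture over monoculture (0.348).

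Spry1 (ENSMUSG00000037211, chr3:37639947-37644598) had 5.67, 6.88 and 6.18 CPM in the IL13KO cocultures, 6.15, 5.07 and 5.39 CPM in the WT cocultures and 5.32, 7.11, 9.77 and 10.5 CPM in the monocultures. Monoculture 1 lay within the range of the cocultures and monocultures 2, 3 and 4 above it. The log2 fold change was -0.39 ± 0.23 in the IL13KO coculture (edgeR adjusted p = 0.16) and -0.56 ± 0.23 in the WT coculture over monoculture (0.0474). The WT call was lost when any 1 library other than monoculture 1 or 2 was left out, at edgeR adjusted p = 0.065 to 0.136, and the IL13KO comparison was called without monoculture 1 (-0.55, 0.0281). After the GC and length correction both were called, at -1.44 and -1.48. Of its exon bases 24.4% are shared with Gm42922 on the opposite strand, which had 5 to 8 reads in the IL13KO cocultures, 6 to 9 with WT ILC2s and 0 to 8 in the monocultures.

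Spry4 (ENSMUSG00000024427, chr18:38586247-38601415, minus strand) had 19.4, 20.3 and 14.9 CPM in the IL13KO cocultures, 15.3, 13.1 and 14.4 CPM in the WT cocultures and 14.6, 16.3, 14.9 and 18.6 CPM in the monocultures. The 3 groups overlapped. Its values over monoculture were 0.18 ± 0.15 in the IL13KO and -0.18 ± 0.15 in the WT coculture on the log2 scale (edgeR adjusted p = 0.341 and 0.33). Between the cocultures, IL13KO over WT, it was 0.35 ± 0.16, with an adjusted p of 0.138 in the same edgeR test. After the GC and length correction it was called lower in both, at -0.61 and -0.86, which turns its direction in the IL13KO coculture.

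The Spred genes moved apart. Spred1 (ENSMUSG00000027351, chr2:117121374-117182279), whose protein recruits neurofibromin to switch Ras off, had 47.0, 52.4 and 52.6 CPM in the IL13KO cocultures, 47.1, 37.8 and 42.5 CPM in the WT cocultures and 90.1, 65.8, 74.7 and 85.2 CPM in the monocultures. Every monoculture was above every coculture. It fell by 0.64 ± 0.12 on the log2 scale in the IL13KO coculture and by 0.89 ± 0.12 in the WT coculture over monoculture (edgeR adjusted p = 0.000747 and 4.51e-05). Between the cocultures, IL13KO over WT, it was 0.25 ± 0.13 (0.188).

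Spred2 (ENSMUSG00000045671, chr11:19924375-20024026), which encodes the close relative of Spred1, had 9.70, 12.1 and 9.75 CPM in the IL13KO cocultures, 15.1, 8.71 and 8.68 CPM in the WT cocultures and 2.79, 4.81, 2.21 and 3.02 CPM in the monocultures. Every coculture was above every monoculture, and WT coculture 1 was the highest library. Spred2 rose by 1.70 ± 0.27 in the IL13KO and 1.74 ± 0.27 in the WT coculture over monoculture on the log2 scale (edgeR adjusted p = 0.000194 and 0.000114). Between the cocultures it was -0.04, IL13KO over WT, with a 95% interval of -0.63 to 0.54.

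The third gene of that family, Spred3, averaged 2.50 ± 0.251 CPM in the IL13KO coculture, 2.42 ± 0.420 in the WT coculture and 1.12 ± 0.446 in monoculture (SD, n = 3, 3 and 4). It was called higher in both over monoculture (log2 fold change 1.14 ± 0.31 and 1.10 ± 0.31, edgeR adjusted p = 0.00717 and 0.00759), but after the GC and length correction the values were -0.13 and 0.00 and neither was called.

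Of the Pea3 factors, Etv4 had the largest fold changes over monoculture among the 10 genes. Etv4 (ENSMUSG00000017724, chr11:101769742-101785371, minus strand), a transcriptional activator induced by fibroblast growth factor signalling in many embryonic tissues, had 89, 88 and 99 reads in the IL13KO cocultures, 294, 242 and 132 in the WT cocultures and 2, 9, 4 and 4 in the monocultures. These are 5.05, 5.00 and 5.61 CPM, 13.2, 12.4 and 7.11 CPM, and 0.169, 0.667, 0.369 and 0.281 CPM in the same order of groups. The 3 groups did not overlap. The log2 fold change was 3.77 ± 0.36 for IL13KO coculture over monoculture, 4.83 ± 0.35 for WT coculture over monoculture and -1.06 ± 0.28 for IL13KO over WT coculture (edgeR adjusted p = 4.02e-06, 1.85e-07 and 0.0143). Its filter was passed through the cocultures, and the size of the first and second values rests on 19 reads over the 4 monocultures.

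Etv5 (ENSMUSG00000013089, chr16:22381309-22439719, minus strand), the closest relative of Etv4, had 27.5, 26.5 and 24.0 CPM in the IL13KO cocultures, 35.0, 28.0 and 23.6 CPM in the WT cocultures and 4.73, 2.44, 7.93 and 4.43 CPM in the monocultures. Every coculture was above every monoculture, and the cocultures overlapped. Etv5 rose by 2.43 ± 0.27 in the IL13KO and 2.58 ± 0.27 in the WT coculture over monoculture on the log2 scale (edgeR adjusted p = 1.35e-05 and 4.55e-06). Between the cocultures, IL13KO over WT, it was -0.15 with a 95% interval of -0.73 to 0.43. Etv1, the remaining Pea3 factor, was not called, at 3.88 ± 0.403 CPM in the IL13KO coculture, 4.08 ± 0.310 in the WT coculture and 2.86 ± 2.16 in monoculture (SD, n = 3, 3 and 4).

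The difference between the cocultures was tested directly. The part of IL-13 in it was not tested apart from other differences between the kinds of ILC2. Of the 10 genes, 2 were called higher (Dusp5 and Spry2) and 1 lower (Etv4) in the IL13KO over the WT coculture, where 23.3% of all genes tested were called (11.7% higher and 11.6% lower). The median log2 fold change of the 10 genes was 0.09 and that of all genes 0.004. Against a fold change of 1.5, edgeR called 0 of the 10, where 6.79% of all genes were called (3.49% higher and 3.29% lower), although 1 higher (Dusp5) and 1 lower (Etv4) passed an unadjusted p of 0.05 there. Against any change, DESeq2 and limma-voom each called 2 higher and 1 lower. At an unadjusted p below 0.05 in edgeR's test against any change, Spry4 joined those 3. Each of the 3 calls was lost when any of 4 or 5 single libraries was left out. Dusp5 was lost without IL13KO coculture 1, 2 or 3 (adjusted p = 0.0515, 0.139 and 0.0625) and without WT coculture 1 or 4 (0.096 and 0.123). Spry2 was lost without IL13KO coculture 1 or 2 (0.107 and 0.0592) and without WT coculture 1 or 4 (0.068 and 0.0845). Etv4 was lost without IL13KO coculture 1 or 2 (0.0597 and 0.0651) and without WT coculture 1 or 3 (0.0633 and 0.0635), all in edgeR's quasi-likelihood test, while its log2 fold change stayed between -0.90 and -1.04 in those 4 fits.

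Of 6 ILC2 markers tested, 1 was called higher and 3 lower in the IL13KO over the WT coculture. The 10 markers listed summed to 75.3 to 82.6 CPM in the IL13KO cocultures, 1259.5 to 1509.8 CPM in the WT cocultures and 65.5 to 82.0 CPM in the monocultures. Il13 and Il7r were at 0 in the IL13KO cocultures, and Il13, Il5, Klrg1 and Il7r were at 0 in the monocultures. Most of the WT sum was Il1rl1, the IL-33 receptor gene, at 1184 to 1445 CPM. Most of the other sums was Rora, at 51.7 to 57.4 CPM in the IL13KO cocultures and 59.8 to 71.1 CPM in the monocultures. No ILC2s were added to the monocultures, and the part of the fibroblasts' own expression in these sums was not tested. Rora was the marker called higher, at 55.3 ± 3.09 CPM in the IL13KO coculture and 41.7 ± 5.44 CPM in the WT coculture, and Il2ra was not called, at 1.65 ± 2.22 and 1.75 ± 0.931 CPM in these groups. Mural cell markers, 6 genes including Rgs5, summed to 76.6 to 96.5 CPM in the IL13KO cocultures, 13.4 to 19.9 CPM in the WT cocultures and 60.8 to 89.5 CPM in the monocultures. The epithelial markers in the table reached at most 3.33 CPM and the endothelial ones 0.769 CPM in any library. The part of other cells in the changes of Dusp5, Spry2 and Etv4 was not tested. Of 7 response genes of IL-4 and IL-13 signalling, all 7 were higher in both cocultures than in monoculture, and 4 of them were lower in the IL13KO than in the WT coculture, led by Ccl11 (log2 fold change -2.82), Il13ra2 (-3.04), Cish (-2.42) and Arg1 (-2.45).

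Per kilobase of exon, Spry2 was the most abundant of the 10 transcripts in every group, at 56.1 ± 7.18 CPM per kb in the IL13KO coculture, 39.6 ± 3.77 in the WT coculture and 62.2 ± 9.76 in monoculture. In the IL13KO coculture it was followed by Spred1 (7.47 ± 0.466 CPM per kb), Etv5 (6.34 ± 0.434), Spry4 (3.84 ± 0.613) and Dusp4 (2.93 ± 0.155), whose ranges did not overlap. Below them Spred2, Spry1, Dusp6 and Etv4 overlapped from each gene to the next, between 2.28 and 1.68 CPM per kb, and Dusp5 was lowest at 0.597. In the WT coculture Etv5 (7.03 ± 1.41 CPM per kb) overlapped Spred1 (6.26 ± 0.683), and neighbours from Dusp4 (3.69) down to Dusp6 (1.81) overlapped. In monoculture Spred1 (11.6 ± 1.601 CPM per kb) stood alone in the next place, neighbours from Spry4 (3.39) down to Dusp4 (0.596) overlapped, and Dusp5 (0.198) and Etv4 (0.120) overlapped at the bottom. Etv4 thus held the last place in monoculture and the fifth in the WT coculture.

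The genes whose pattern over the 10 libraries was most like that of Etv4 included Pold1 and Trim47, with a root mean square difference in centred log2 CPM of 0.33 and 0.42 among 9098 candidates. Pold1, the catalytic subunit of DNA polymerase delta, averaged 18.2 CPM in the IL13KO coculture, 32.4 in the WT coculture and 1.73 in monoculture. Those most like Dusp4 were Fn1, Phldb1 and Adgra2, at 0.22, 0.23 and 0.24. Fn1, which encodes fibronectin, averaged 1407 CPM in the IL13KO coculture, 1759.9 CPM in the WT coculture and 313 in monoculture. Etv4 and Dusp4 were taken for this because their group means ranged widest among the 10 genes, by 4.53 and 2.69 on the log2 scale. The values compared were without the GC and length correction. The part of those trends in the likeness was not tested, and a like pattern does not show shared regulation.

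Several of these values moved when each library's trends with GC content and transcript length were removed together, and the part of each was not tested. GC content of the longest transcript ran from 41.2% in Spred1 and 46.2% in Spry2 to 56.0% in Dusp4, 56.7% in Dusp5 and Spry1 and 58.7% in Etv4. After the correction for GC content and length, the log2 fold changes of Etv4 became 2.65 in the IL13KO and 3.84 in the WT coculture over monoculture. Those of Etv5 became 1.73 and 1.96, those of Dusp4 1.39 and 1.84, those of Spred2 0.96 and 1.08 and those of Spred1 -0.47 and -0.65, in the same order. These 5 genes were called in the same direction with and without it. After that correction, 4 genes were called higher and 3 lower in the IL13KO coculture over monoculture, where 46.7% of all genes were called (21.4% higher and 25.3% lower). In the WT coculture 4 were called higher and 4 lower, where 58.1% were called (27.9% higher and 30.2% lower). In the IL13KO over the WT coculture the same 3 genes were called, 2 higher and 1 lower, where 26.4% were called (12.5% higher and 14.0% lower). Upper-quartile scaling moved the median of all genes to -0.102 in the IL13KO and -0.106 in the WT coculture over monoculture, without changing which of the 10 were called.

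**Figure D3:**
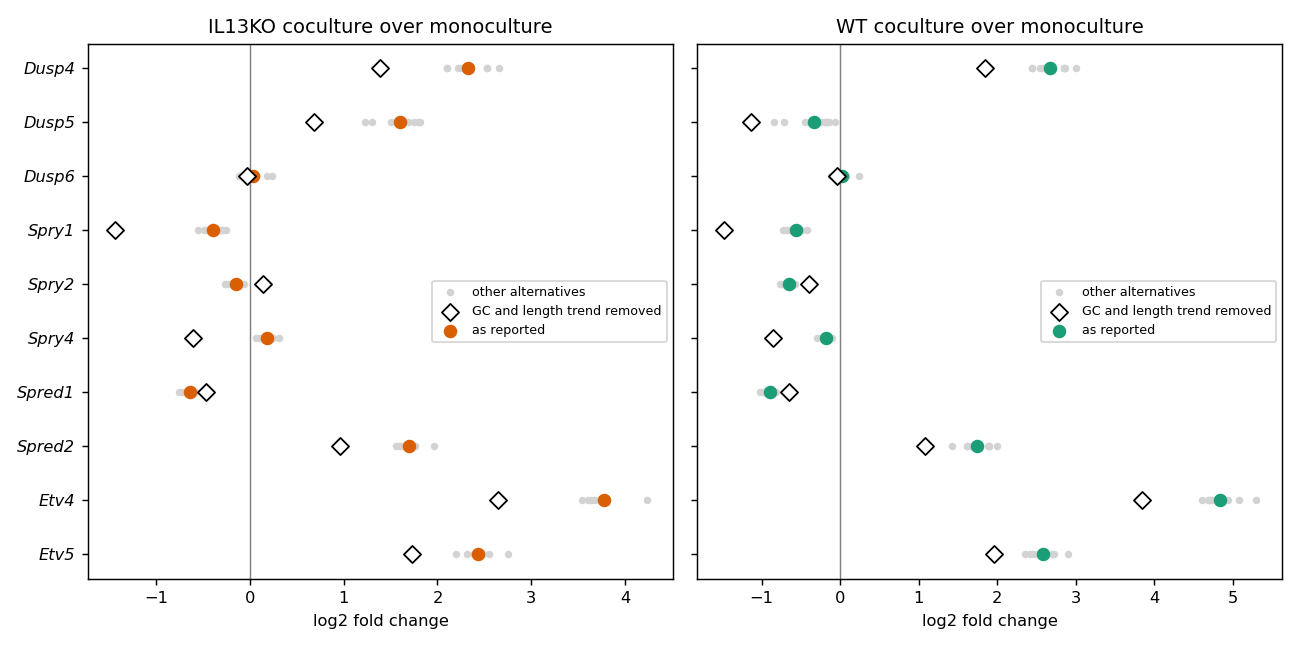
Log2 fold change over monoculture (horizontal axis) of the 10 genes in the IL13KO coculture (left) and the WT coculture (right), as reported (coloured), after the GC and length correction (diamonds) and under the other settings, leave-one-out fits included (grey). Etv4, Etv5, Dusp4 and Spred2 lie above 0 and Spred1 below 0 under every setting drawn, and Spry4 changes sign in the IL13KO coculture.

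The rest of the pathway was described from lists of genes by role, counted in the same tests. The share of all genes called was 57.4% in the IL13KO coculture over monoculture (30.1% higher and 27.3% lower). In the WT coculture over monoculture it was 62.5% (32.8% higher and 29.7% lower), and between the cocultures 23.3%. After the GC and length correction these shares were 46.7%, 58.1% and 26.4%. The list counts that follow are to be read beside these shares. Of 6 other dual-specificity phosphatases tested, 1 was called higher and 1 lower in the IL13KO coculture, 3 higher and 2 lower in the WT coculture over monoculture, with list medians of 0.23 and 0.59. With the GC and length correction 3 were called lower in the IL13KO coculture and 1 higher and 1 lower in the WT coculture, and both medians were negative (-0.61 and -0.44). Dusp1, an immediate early nuclear phosphatase that acts chiefly on p38 and JNK, averaged 448 ± 66.1 CPM in the IL13KO coculture, 281 ± 46.5 in the WT coculture and 687 ± 57.1 in monoculture (SD, n = 3, 3 and 4). It fell by 0.62 and 1.29 on the log2 scale in these cocultures. Dusp10, also directed at p38 and JNK, was 11.2 ± 1.96 CPM in the IL13KO coculture, 22.2 ± 1.41 in the WT coculture and 10.3 ± 1.59 in monoculture, with a log2 fold change of -0.99 for IL13KO over WT coculture. Dusp1 differed in the other direction between the cocultures (0.67). Both differences between the cocultures were called, and both were called after the GC and length correction.

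Another 12 genes were listed as inhibitors of receptor kinase and Ras signalling, and the role of each was not tested here. Of these, 6 were called higher and 2 lower in the IL13KO coculture over monoculture. In the WT coculture over monoculture 4 were called higher and 4 lower. The medians were 0.63 and 0.18 in the same order. After the GC and length correction these counts were 4 higher and 2 lower in the IL13KO and 3 higher and 5 lower in the WT coculture, and both medians were negative (-0.13 and -0.45). Errfi1, which encodes an inhibitor of the EGF receptor, averaged 167 ± 10.4 CPM in the IL13KO coculture, 310.1 ± 45.9 in the WT coculture and 49.9 ± 9.82 in monoculture. Its log2 fold change was 1.74 and 2.64 over monoculture and -0.90 between the cocultures, all called. Spsb1, an adaptor of a ubiquitin ligase, rose by 2.32 and 3.14, and Cblb, a ubiquitin ligase of activated receptors, by 1.94 and 1.39. The Ras GTPase activators differed: Rasa1 fell in both cocultures (-1.10 and -1.41), and Rasa3 was 1.30 in the IL13KO coculture, called, and 0.01 in the WT coculture over monoculture, not called. After the GC and length correction Rasa3 was 0.38 in the IL13KO coculture and -0.79 in the WT coculture, called in both. Its difference between the cocultures, IL13KO over WT, was called with and without that correction (1.17 and 1.29). The other calls named in this list were also made after the correction, with Spsb1 at 1.49 and 2.40.

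Of 14 other genes that respond to ERK, 6 were called higher and 2 lower in the IL13KO coculture and 8 higher and 3 lower in the WT coculture (medians 0.25 and 0.90). Fosl1, an AP-1 subunit, averaged 13.2 ± 2.05 CPM in the IL13KO coculture, 29.4 ± 2.77 in the WT coculture and 3.30 ± 0.717 in monoculture. Phlda1 was at 199 ± 14.9, 229 ± 13.4 and 70.8 ± 11.0 CPM and Epha2, an ephrin receptor, at 3.54 ± 0.272, 3.78 ± 0.810 and 0.512 ± 0.291 CPM in the same groups. Mmp3, the matrix protease stromelysin, stood at 1301 ± 201 CPM in the IL13KO coculture, 116 ± 23.0 in the WT coculture and 2094 ± 409 in monoculture. It fell in both cocultures (log2 fold change -0.69 and -4.17), and the IL13KO value was lost after the GC and length correction (-0.34, edgeR adjusted p = 0.0719). After that correction the counts were 4 higher and 1 lower in the IL13KO and 7 higher and 3 lower in the WT coculture (medians 0.17 and 0.57), with Fosl1 at 1.28 and 2.51, Phlda1 at 0.63 and 0.94 and Epha2 at 1.36 and 1.64, against 2.01 and 3.16, 1.49 and 1.70, and 2.76 and 2.86 without it. Between the cocultures 2 of the 14 were called higher and 4 lower, with Mmp3 at 3.49 and Fosl1 at -1.15.

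Of 15 immediate early genes, genes switched on first after stimulation, most of them for transcription factors, 10 were called higher and 1 lower in each coculture over monoculture (medians 0.91 and 1.10). After the GC and length correction these counts were 6 higher and 2 lower in the IL13KO coculture and 6 higher and 3 lower in the WT coculture (medians 0.36 and 0.23). Junb averaged 618 ± 36.3 CPM in the IL13KO coculture, 533 ± 107 in the WT coculture and 46.8 ± 26.0 in monoculture, and Jun 149 ± 8.03, 380.1 ± 44.9 and 30.1 ± 9.49 CPM. Myc was at 56.4 ± 1.80 CPM in the IL13KO coculture, 105 ± 9.38 in the WT coculture and 30.0 ± 4.78 in monoculture. Jun and Myc were lower in the IL13KO than in the WT coculture (-1.35 and -0.90), and Junb was not called between them (0.21). Egr1 was called higher in both over monoculture (1.96 and 1.57), and in neither after the GC and length correction (0.36 and 0.23).

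Upstream of ERK, 8 of 11 receptor kinases were called higher and 0 lower in the IL13KO coculture over monoculture, and 7 higher and 1 lower in the WT coculture (medians 1.21 and 0.61, after the GC and length correction 7 higher, and 4 higher and 3 lower, with medians of 0.56 and -0.09). Axl, the receptor of Gas6, averaged 519 ± 6.55 CPM in the IL13KO coculture, 536 ± 193 in the WT coculture and 77.9 ± 17.0 in monoculture, and Erbb2 17.7 ± 1.96, 19.4 ± 6.66 and 1.95 ± 0.406 CPM. Pdgfra, used in the sort of these cells, rose by 1.01 and 0.77. Fgfr1, a receptor that drives Pea3 factors in other tissues, was at 171 ± 27.3 CPM in the IL13KO coculture, 94.5 ± 24.2 in the WT coculture and 43.1 ± 11.9 in monoculture. Its log2 fold change over monoculture was 1.99 and 1.14, and after that correction 0.56 in the IL13KO coculture, called, and -0.10 in the WT coculture, not called. Axl became 1.61 and 1.78, against 2.74 and 2.78 without the correction, Erbb2 1.47 and 1.82, against 3.17 and 3.31, and Pdgfra 0.47 and 0.35. Pdgfrb, Egfr, Fgfr1 and Fgfr2 were higher in the IL13KO than in the WT coculture, by 1.70, 0.82, 0.85 and 1.69 on the log2 scale.

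Of 14 genes of the Ras, Raf, MEK and ERK core, 6 were called higher and 0 lower in the IL13KO coculture and 4 higher and 2 lower in the WT coculture over monoculture (medians 0.28 and 0.12). After the GC and length correction these counts were 3 higher and 4 lower in the IL13KO and 5 higher and 4 lower in the WT coculture (medians 0.12 and 0.08). Map2k1, which encodes MEK1, was at 167 ± 6.03 CPM in the IL13KO coculture, 179 ± 7.04 in the WT coculture and 118 ± 8.34 in monoculture (log2 fold change 0.50 and 0.60). Rras2, a Ras relative, rose by 1.27 and 1.08. Map2k2, which encodes MEK2, was called higher in both (0.82 and 0.83) and lower in both after the GC and length correction (-0.49 and -0.29). Of 10 adaptors and exchange factors 5 were called higher and 0 lower in the IL13KO coculture and 5 higher and 1 lower in the WT coculture (medians 0.78 and 0.24), among them Frs2, which couples FGF receptors to Ras (1.13 and 0.65). With the correction 3 were called higher in the IL13KO coculture and 2 higher and 2 lower in the WT coculture (medians 0.17 and -0.04). Of 6 ERK substrates 4 were called higher and 0 lower in each (medians 0.97 and 0.84), led by Rps6ka2, a ribosomal S6 kinase, at 2.05 and 2.06. With the correction 2 substrates were called higher and 1 lower in each (medians 0.49 and 0.50), and Rps6ka2 stood at 0.75 and 0.91. Where edgeR called 0 genes of these upstream and substrate lists lower without the correction, DESeq2 and limma-voom also called 0, and at an unadjusted p below 0.05 the count was 1 for the core in the IL13KO coculture and 0 for the others.

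Of 13 other ETS factors, 7 were called higher and 1 lower in the IL13KO coculture and 7 higher and 3 lower in the WT coculture over monoculture (medians 0.51 and 0.47, after that correction 4 higher and 2 lower, and 5 higher and 4 lower, with medians of -0.16 and 0.16). Elk1, an ERK substrate that binds with serum response factor, averaged 20.5 ± 1.06 CPM in the IL13KO coculture, 14.9 ± 3.12 in the WT coculture and 3.35 ± 1.90 in monoculture, with log2 fold changes of 2.62 and 2.16. Elf4 rose by 2.0 and 1.66, and by 0.97 and 0.76 after that correction. Fli1 was at 4.80 ± 0.380 CPM in the IL13KO coculture, 2.38 ± 0.470 in the WT coculture and 6.11 ± 1.62 in monoculture. It was called lower in the WT coculture over monoculture (-1.36) and higher in the IL13KO over the WT coculture (1.01). The log2 fold changes of Etv4, at 3.77 and 4.83, were above those of each of these 13 factors in both comparisons with monoculture.

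**Figure D4:**
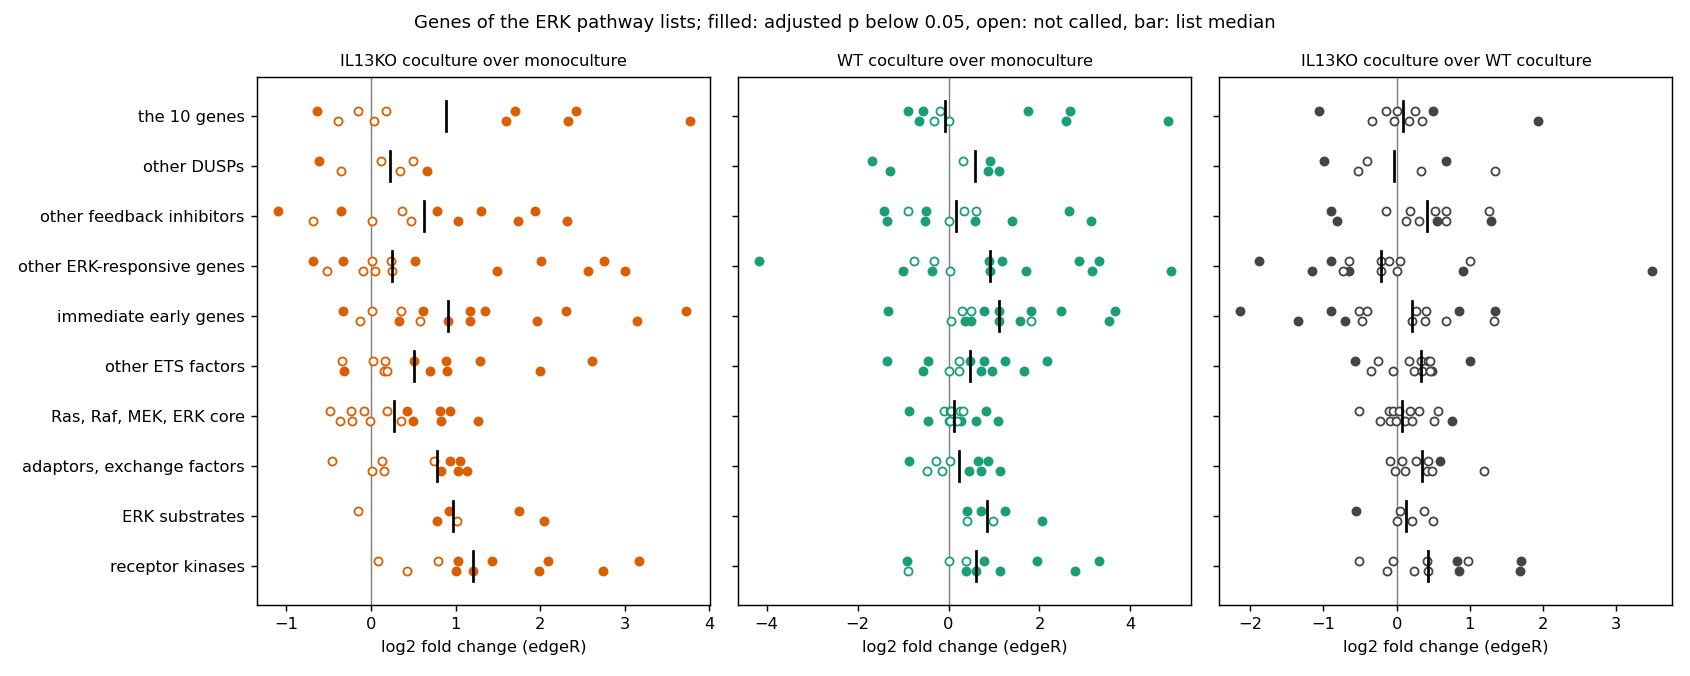
Log2 fold change (horizontal axis) of each tested gene in the 10 lists of the ERK pathway, for IL13KO coculture over monoculture, WT coculture over monoculture and IL13KO over WT coculture, with filled points where the adjusted p is below 0.05 and a bar at each list's median. The receptor kinases have a median of 1.21 in the first comparison, and in the third all list medians lie within 0.5 of 0.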

How the data were processed

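RNA of 10 fibroblast libraries was sequenced from a preparation for small amounts of RNA, per the labels' protocols. The authors deposited whole-number read counts for 22731 genes. The submitters' processing notes name STAR 2.7.7a, Salmon 1.6.0, Picard, DESeq2, Trimmomatic 0.39 and FastQC 0.11.9, with the build GRCm38.p6. Which tool counted, with which annotation and on which strand is not given in the sources used here. A normalized table the authors also deposited was not used.

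From the counts, edgeR 4.0.16 (R 4.3.3) with filterByExpr kept 16344 genes, scaled libraries by TMM and fitted all 10 libraries by quasi-likelihood, with group as the model's factor. P-values were adjusted by Benjamini-Hochberg over all genes tested in a comparison, and a gene was called below 0.05. The count of 3 used as a floor covers counting error only, as do all read numbers. CPM are TMM-normalised, and means are given ± SD. Log2 CPM used a prior count of 2. Symbols, positions, length and GC content came from GENCODE vM21, which matched 22647 identifiers. The code was tested on simulated data.

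The 10 genes, the lists and the rule for naming genes were chosen with earlier results of these data known. The rule names all 10 genes, their family relatives, up to 4 called genes of each other list per comparison with the smallest adjusted p, and, for the 2 genes with the widest group means, the 3 of most like pattern among genes with at least 10 CPM in a group, of which 1 is not reported here. Genes named in a comparison where the rule does not reach them, such as Epha2 and Frs2 in the WT coculture and Dusp10 and Rasa3 where they were not called, are given as values of list members. Cd53, Il1rl1, Rgs5 and Col1a1 belong to marker lists. Spry3, Dusp2, Areg, Rps6ka4, Erg and Spi1 were listed and not analysed here.

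The WT columns of the table carry the numbers 1, 3 and 4 and the labels 1 to 3, so they were used as members of their group. Alternatives were DESeq2 size factors and upper-quartile factors in edgeR, DESeq2 1.42.0, limma-voom (limma 3.58.1), no filter, a filter of 1 CPM in 3 libraries, only the groups compared, a test against a fold change of 1.5, a replicate block, removal of each library's GC and length trend (loess, span 0.4) and leaving out each library.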

Additional observations from a re-analysis of the deposited data

Results flagged for a closer look

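Dusp5 in the monocultures had 1 library far from the others: the gap of monoculture 2, with 1 read, to the next library was 0.891 of the whole range of log2 CPM. The 10 genes were each examined in the 4 monocultures in this way, and chance flags about 1 in 20 such groups.

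For 3 of the 10 genes the effect of coculture differed between the kinds of ILC2, by edgeR's test of IL13KO over WT coculture. Of all genes tested, 23.3% were called in that comparison, and the share of the 10 genes was near this. The log2 difference was 1.93 for Dusp5, 0.50 for Spry2 and -1.06 for Etv4. Dusp5 stood at 1.48 ± 0.507 CPM in the IL13KO coculture and 0.382 ± 0.208 in the WT coculture, Spry2 at 117 ± 15.0 and 82.6 ± 7.86, and Etv4 at 5.22 ± 0.341 and 10.9 ± 3.30 (SD, n = 3 each). Each of these calls was lost when certain single libraries were left out.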

How the results depend on the processing

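The number of the 10 genes called in the IL13KO over the WT coculture, 3 as reported, was 0 against a fold change of 1.5, 1 (Etv4) with the replicate block and 0 to 3 without single libraries. It was 6 in the IL13KO coculture over monoculture (5 to 7 without single libraries, 5 with the replicate block) and 7 in the WT coculture over monoculture (6 to 7, and 6 with the block). The calls over all genes moved as well. Between the cocultures 1909 of 16344 were called higher and 1901 lower as reported. These were 571 and 538 against a fold change of 1.5 and 1138 and 986 with the block. Without single libraries they ran from 1239 and 1098 (without IL13KO coculture 2) to 2426 and 2388 (without monoculture 1). Over monoculture the block called 4564 and 3733 in the IL13KO and 5052 and 4370 in the WT coculture. No pairing by replicate number was seen in the deviations from the group means. These correlated at -0.13 to 0.03 in 8 pairs of the same number and at -0.15 to 0.14 in 25 other pairs. Such correlations cannot exclude a shared animal or batch, as the animal behind each library is not given.

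Over all fits of the log2 fold changes of the 10 genes, 538 kept direction and call, 37 lost the call, 3 gained it and 21 changed sign. Sign changes concerned values close to 0, apart from Spry4 in the IL13KO coculture over monoculture, which was -0.61 after the GC and length correction. After that correction Spry2 was 0.14 in the same comparison, and Dusp6 was -0.03 in the IL13KO and -0.04 in the WT coculture over monoculture. Upper-quartile scaling put Dusp6 at -0.08 and -0.10 in the same order. In the IL13KO over the WT coculture Dusp6 was -0.01 by limma-voom and -0.0046 with no filter. Without single libraries Dusp6 ran from -0.11 to 0.24 in the IL13KO and from -0.12 to 0.24 in the WT coculture over monoculture, and from -0.13 to 0.15 between the cocultures, where Spred2 ran from -0.20 to 0.27 and Etv5 from -0.28 to 0.01. The cause of these shifts was not tested. Dusp5 has no value for the WT coculture in the fit of only the groups compared, as the filter dropped it. Depth limits Dusp5 and the monoculture level of Etv4 most.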
